A study of Mus musculus with 8 samples.

Results

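The proteasome subunit genes were examined through the open chromatin at their ends in control and paused mouse embryonic stem cells. A peak belonged to the set when its centre lay within 1 kb of either end of 1 of 40 named genes, the Psma, Psmb, Psmc, Psmd and Psme genes. This rule took 48 of the 134407 peaks in the table, near 37 of the 40 genes. Of the 48 peaks, 47 had a mean value of at least 10 and were tested, among 127402 tested peaks in all.

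Accessibility was measured by ATAC-seq, which uses a transposase to cut and tag open DNA, in wild-type E14 cells, an established line of mouse embryonic stem cells. All cultures were on gelatin in medium with serum and LIF. The 4 control libraries came from cells without inhibitor, and the 4 paused libraries from cells given INK128 at 200 nM for 24 h. INK128 inhibits the mTOR kinase, which couples growth to nutrients. Each library was made from 50000 live cells of the 1 line. Nothing in the labels says whether replicates were separate cultures, so that p-values measure the spread between these libraries, which may be technical.

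The proteasome degrades proteins marked with ubiquitin. Its core particle is a barrel of alpha and beta rings, with the cutting sites on the inside of the beta rings. The regulatory particle caps the barrel, binds ubiquitin chains, removes them, and uses a ring of ATPases to unfold the substrate and feed it in. The Psme activators can take the place of the cap. mTOR signalling and the factor Nfe2l1 are both known to bear on the supply of proteasomes in mouse cells.

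The deposited values are reads per peak divided by a factor for each library. Recovered from these values, the reads in peaks numbered 21161767 for control replicate 1, the deepest library, and 4434037 to 7238935 for the others, and the median peak held between 18 and 91 reads. The recovered reads of replicates differed by more than sampling noise in every pair (lowest chi-square per degree of freedom 1.09), and all 8 libraries were counted separately. Peaks were found at the ends of 5 of 7 embryonic stem cell marker genes (Nanog, Sox2, Zfp42, Esrrb and Tfcp2l1, with none at Pou5f1 or Dppa5a), but also of 3 of 4 primitive endoderm genes, 4 of 4 trophoblast genes and 4 of 4 fibroblast genes, so that a peak at a gene end did not set the labelled cell type apart from the others.

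Promoter sequence was available in the RefSeq table (GRCm38.p6) for 34 of the 40 genes. The 150 bases before the start site are shown for the 3 of these genes whose peak had the smallest p-values, Psmd8, Psmc4 and Psmd11, and for 2 whose group means were nearly equal, Psme1 and Psmd6. They are written 5′ to 3′ on the strand of the gene, the last base being the one before the start site. Capitals mark a match, on either strand, to 1 of 8 short motifs searched.
Psmd8, chr7:29180674-29180823, minus strand: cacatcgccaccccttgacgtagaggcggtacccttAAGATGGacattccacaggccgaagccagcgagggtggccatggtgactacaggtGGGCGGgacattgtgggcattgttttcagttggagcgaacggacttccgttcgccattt
Psmc4, chr7:28050093-28050242, minus strand: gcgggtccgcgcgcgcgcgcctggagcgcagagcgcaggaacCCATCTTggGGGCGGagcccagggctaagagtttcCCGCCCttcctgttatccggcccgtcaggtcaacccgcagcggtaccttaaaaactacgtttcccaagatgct
Psmd11, chr11:80428465-80428614, plus strand: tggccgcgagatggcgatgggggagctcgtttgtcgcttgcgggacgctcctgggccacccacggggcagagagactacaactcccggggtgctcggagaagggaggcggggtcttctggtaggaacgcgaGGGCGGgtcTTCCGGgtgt
Psme1, chr14:55578344-55578493, plus strand: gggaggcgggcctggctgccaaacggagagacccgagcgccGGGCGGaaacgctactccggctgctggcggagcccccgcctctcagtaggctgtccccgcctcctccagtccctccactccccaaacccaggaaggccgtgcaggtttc
Psmd6, chr14:14120946-14121095, minus strand: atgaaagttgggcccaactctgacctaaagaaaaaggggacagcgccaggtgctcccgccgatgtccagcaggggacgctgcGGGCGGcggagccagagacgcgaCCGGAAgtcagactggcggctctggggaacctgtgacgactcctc

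In these stretches the capitals are GC boxes (GGGCGG, bound by the Sp1 family) in all 5 genes, the core of YY1 sites (AAGATGG) in Psmd8, starting 114 bases before the start site, and in Psmc4, starting 108 bases before it, and Ets cores (CCGGAA) in Psmd11 and Psmd6. Over the whole window of 300 bases, 250 before to 50 after the start, an Ets core was present in 15 of 34 member promoters (44.1%), against 14.9% of all 32851 promoters and 22.8% of the 17626 promoters with a tested peak within 1 kb. The YY1 core was present in 7 (20.6%), against 6.34% of all promoters and 6.35% of those with a peak. A GC box was present in 21 (61.8%), against 35.7% and 56.3%, and a CCAAT box (CCAAT, bound by NF-Y) in 12 (35.3%), against 37.4% and 36.8%. The core of the antioxidant response element (TGACNNNGC), which Nfe2l1 and Nfe2l2 can bind, was present in 6 (17.6%), namely Psmb5, Psmb6, Psmc6, Psmd9, Psmd12 and Psme4, against 12.4% and 13.8%. An E-box (CACGTG) was present in 4 (11.8%, against 7.15% and 9.42%), an interferon response core (GAAA, any 2 bases, GAAA) in 4 (11.8%, against 3.44% and 2.72%) and a site core of nuclear respiratory factor 1 (TGCGCATG) in 1 (2.94%, against 2.12% and 3.24%). Both strands were searched, motifs may overlap each other, and a match describes letters only. The member shares take 1 promoter per gene, the nearest to its strongest peak where it had one, while the other shares count every promoter entry. The 34 include Psma7, Psmb10 and Psmc5, which had no peak in the window, so that the shares are not closely matched.

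Most member peaks lay on the start site. Of the 37 genes with a peak, 27 had 1, 9 had 2 and Psma3 had 3. Where the start site was known, the strongest peak of a gene was at it for 30 genes, with a median offset of -39.5 bp (range -567 to 147 bp), and was centred within 200 bp of it for 28. The 2 farther away were Psmb8 and Psme2. The peaks of Psma3 lay at the ends of its annotated span, away from the start site in the promoter table. For 9 of the 37 strongest peaks the end of another gene was also within 1 kb, as at Psmb9 with Tap1, Psma2 with Mrpl32, Psmc2 with Dnajc2, Psmd13 with Sirt3 and Psme2 with Rnf31, and there the peak cannot be given to 1 gene. At the edge of the window, the farthest member peak (Psmb7, 942 bp) had mean values of 11.4 in control and 9.32 in paused libraries. The nearest peak left out (Psmb5, 1002 bp) had 32.8 and 33.6.

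All peaks have the same width, so that levels can be compared between genes. The strongest peak was above the median of other gene-end peaks (a value of 133) for 32 of the 37 genes. That median takes in every other peak at a gene end, not only the strongest of each gene, so that the comparison favours the proteasome genes. The highest means over all 8 libraries were those of Psmb3, a beta ring subunit (445), Psme2, an activator subunit (438), Psmd8 (353) and Psmd11 (323), both of the regulatory particle, Psmb9 of the immunoproteasome (318) and Psma5 of the alpha ring (296). Psmb3 and Psme2 did not differ beyond their spread: the control means were 408 ± 59.3 and 398 ± 52.4 (SD, n = 4). The lowest of the strongest peaks were those of Psma6 (40.3), Psmd9 (81.3), Psma3 (109) and Psmb8 (109.5).

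**Figure D1:**
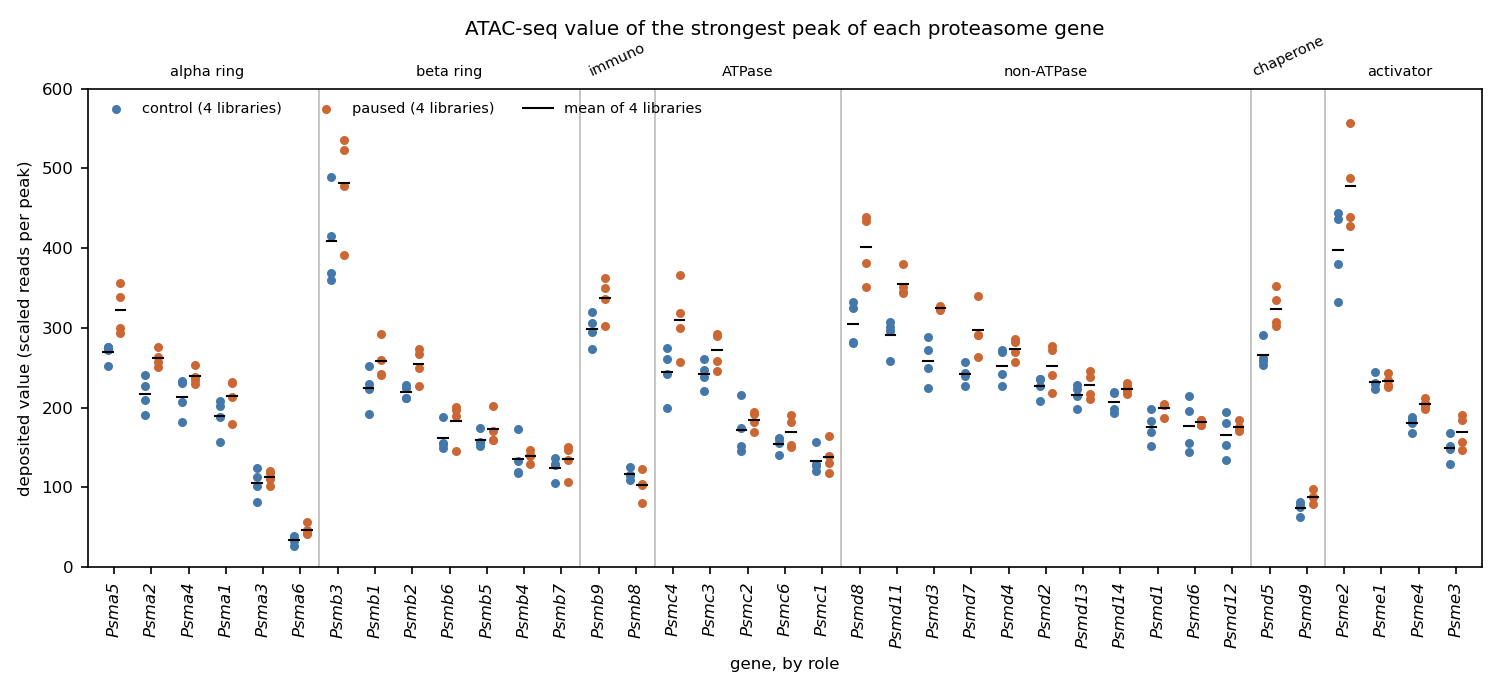
Deposited value (scaled reads per peak) of the strongest peak of each of 37 proteasome genes, grouped by role, with 1 point per library (4 control, 4 paused) and a black line at the mean of each group. Psmb3 and Psme2 are highest, Psma6 is lowest, and the groups overlap for most genes.

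The comparison of paused with control libraries asks how mTOR inhibition changed accessibility at these genes. At the proteasome genes 3 of the 47 tested peaks rose and none fell: Psmd8 and Psmd3, subunits of the lid of the regulatory particle, and Psmc4, one of its ATPases, each by between 25.6% and 31.5%. The other 44 did not pass (limma-trend on log2(value + 1), Benjamini-Hochberg adjusted p under 0.05 over all tested peaks). Of all tested peaks 11% were called higher and 2.91% lower, and of the 16122 other gene-end peaks 10.5% and 1.25%, so that the 3 of 47 do not stand above the background share. An unadjusted p under 0.05 was found for 11 of the 47, and for 31.6% of the other gene-end peaks.

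The median log2 change of the 47 peaks was 0.17, with 40 positive and 7 negative values. The median was 0.17 over the other gene-end peaks and 0.10 over all tested peaks, and 78.2% of the other gene-end peaks had positive values. The median of the proteasome peaks was that of gene ends at large. It depended on the scaling, which moved the median of all tested peaks by between -0.11 (loess correction on peak strength) and -0.10 (TMM rescaling). The proteasome median was 0.06 after TMM rescaling, with 35 of 47 values positive, against 0.07 for other gene ends. After loess correction it was -0.04, with 17 of 47 positive, against -0.02.

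No proteasome peak was called after TMM rescaling, where 3.06% of other gene-end peaks were called higher and 1.88% lower, or after loess correction (1.74% and 1.96%). At an unadjusted p under 0.05 there were 4 after TMM rescaling (17.1% of other gene ends) and 2 after loess correction (13.5%). On the recovered reads, edgeR called 0 of the 47 (other gene ends: 3.83% higher, 2.59% lower) and DESeq2 0 (1.25% and 0.651%), with 5 and 2 at an unadjusted p under 0.05 (18.5% and 11.6% of other gene ends). When weak peaks, with a mean under 50, were left out of the test, 6 of 38 were called higher, adding Psmd5, Psmd7 and Psmd11, against 16.8% higher and 0.432% lower of other gene ends.

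The Psmd8 peak (chromosome 7, 29180589 to 29180789, centred 16 bp before the start site) had values of 281, 325, 283 and 332 in the control libraries and of 351, 438, 382 and 435 in the paused libraries. All 4 paused values lay above all 4 control values. The means were 305 ± 27.0 and 401 ± 42.6 (SD, n = 4), a log2 change of 0.39 (with an SE of 0.11, limma-trend adjusted p = 0.0103). The peak held between 167 and 814 reads per library. An end of Catsperg1 lies 843 bp from its centre.

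The Psmd3 peak (chromosome 11, 98682234 to 98682434, 220 bp outside an end of the gene) had values of 224, 250, 273 and 288 in control and of 322, 323, 326 and 328 in paused libraries. The paused values were close together and above every control value. The means were 259 ± 27.8 and 325 ± 2.74 (SD, n = 4), a log2 change of 0.33 (with an SE of 0.11, limma-trend adjusted p = 0.0291).

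The Psmc4 peak (chromosome 7, 28050033 to 28050233, centred 41 bp before the start site) had values of 243, 199, 261 and 275 in control and of 257, 366, 299 and 319 in paused libraries. Paused replicate 1 lay below the 2 highest control values, so that the groups overlapped. The means were 244 ± 32.7 and 310 ± 45.1 (SD, n = 4), a log2 change of 0.34 (SE 0.12, limma-trend adjusted p = 0.0433).

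The adjusted p of each call exceeded 0.05 when certain libraries were left out, while the log2 changes stayed positive. Without paused replicate 4 none of them passed (limma-trend adjusted p = 0.0582 for Psmd8, 0.0789 for Psmd3 and 0.116 for Psmc4), with log2 changes of 0.351, 0.329 and 0.325 against 0.392, 0.334 and 0.342 with all 8 libraries. The count was 1, with Psmd8 alone, without control replicate 1, control replicate 2 or paused replicate 2. Psmc4 also missed the threshold without control replicate 3 (0.0519) or paused replicate 3 (0.0534), which left 2 calls. The limma-trend adjusted p of Psmd8 was 0.0594 after TMM rescaling and 0.217 after loess correction. The authors' deposited table lists 5 member peaks with an FDR under 0.05, those of Psmd8, Psmd3, Psmd11, Psmd7 and Psmc4, with log2 folds from 0.27 to 0.35. That table lists 9.19% of all peaks as higher at this threshold. It describes the same 8 libraries, and all 3 peaks called here are among the 5.

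**Figure D2:**
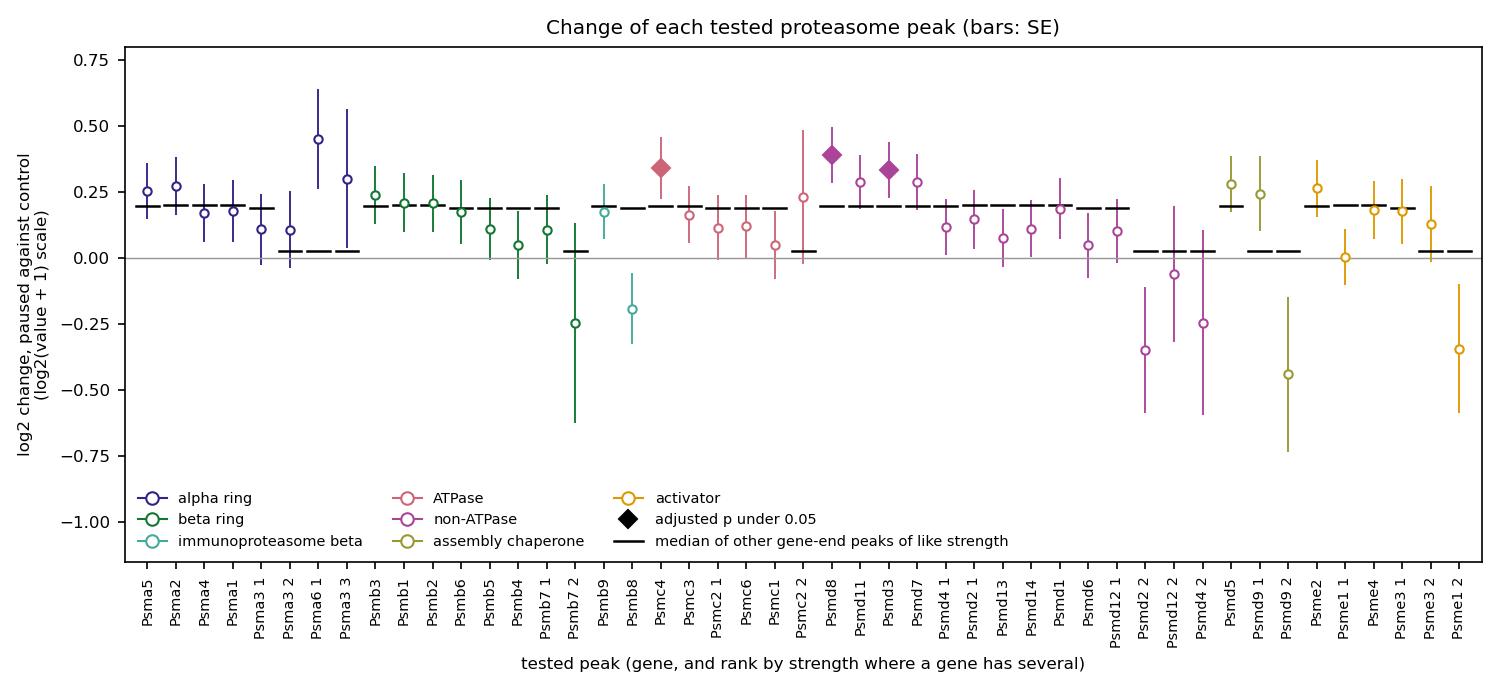
Log2 change (paused against control, log2(value + 1) scale) of each of the 47 tested proteasome peaks, with its SE, coloured by role. Filled diamonds are the 3 peaks with an adjusted p under 0.05 (Psmc4, Psmd8, Psmd3), and short black lines give the median of other gene-end peaks in the same range of strength.

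Of the 47 peaks, 9 had all 4 paused values above all 4 control values, against 14.7% of other gene-end peaks and 13% of all tested peaks, and 0 had all below (1.97% and 4.36%). Besides Psmd8 and Psmd3 these were the peaks of Psmd5, Psmd7, Psmd11, Psma2, Psma5, Psma6 and Psme4. None of these 7 passed the test.

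Among the alpha ring genes, whose subunits form the gate of the barrel, 8 peaks were tested near 6 genes. None was called, all 8 log2 changes were positive, and their median was 0.22. Over the other gene-end peaks 10.5% were called higher and 1.25% lower, 78.2% of changes were positive, and the median was 0.17. The Psma5 peak had values of 277, 252, 273 and 276 in control and of 294, 300, 357 and 339 in paused libraries (log2 change 0.25 with an SE of 0.11, limma-trend adjusted p = 0.0981). The Psma2 peak went from 217 ± 21.5 to 262 ± 10.98 (SD, n = 4; log2 change 0.27, limma-trend adjusted p = 0.0853). In both genes the groups did not overlap. Psma6 had the largest log2 change of all member peaks, 0.45, at a weak peak of 22 to 111 reads per library, with control values of 38.4, 26.3, 39.0 and 32.3 and paused values of 42.7, 41.0, 46.6 and 56.2 (SE 0.19, limma-trend adjusted p = 0.103).

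Among the 8 tested peaks of the 7 constitutive beta ring genes, none was called and 7 log2 changes were positive, with a median of 0.14. The shares over other gene-end peaks were 10.5% called higher, 1.25% called lower and 78.2% positive. The catalytic subunits are encoded by Psmb5, Psmb6 and Psmb7, and the log2 changes of their strongest peaks were 0.11, 0.18 and 0.11 (limma-trend adjusted p = 0.57, 0.356 and 0.622). The strongest member peak, that of Psmb3, had values of 369, 360, 489 and 416 in control and of 478, 391, 535 and 523 in paused libraries, and the groups overlapped (log2 change 0.24 with an SE of 0.11, limma-trend adjusted p = 0.144).

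The immunoproteasome subunits replace the constitutive catalytic ones, in other cells after interferon. Psmb9 had a strong peak 79 bp before its start site, with values of 295, 274, 306 and 320 in control and of 350, 303, 363 and 336 in paused libraries (log2 change 0.18, limma-trend adjusted p = 0.264). An end of Tap1, a peptide transporter gene, lies 147 bp from its centre. The Psmb8 peak, 515 bp before the start site and 455 bp from an end of Tap1, was the only member peak with a mean of at least 50 and a negative change. Its values were 125, 109, 115 and 116 in control and 123, 80.4, 104 and 103 in paused libraries (log2 change -0.19 with an SE of 0.13, limma-trend adjusted p = 0.359). The groups overlapped at both genes. Psmb10 had no peak in the window.

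Among the 6 tested peaks of the ATPase genes 1 was called, that of Psmc4, and all 6 changes were positive (median 0.14). The smallest change at a strongest peak was that of Psmc1, 0.05. Among the 14 peaks of the non-ATPase genes 2 were called, Psmd8 and Psmd3, and 11 changes were positive (median 0.12). Of the other gene-end peaks 10.5% were called higher and 1.25% lower, and 78.2% had positive changes. The Psmd11 peak had values of 259, 301, 296 and 307 in control and of 352, 345, 380 and 343 in paused libraries, with no overlap (log2 change 0.29 with an SE of 0.10, limma-trend adjusted p = 0.0523). The Psmd7 peak, of a subunit that pairs with the deubiquitinase Psmd14, went from 242 ± 12.3 to 297 ± 31.9 (SD, n = 4; log2 change 0.29, limma-trend adjusted p = 0.0651). The Psmd14 peak itself had a log2 change of 0.11 (limma-trend adjusted p = 0.527), and that of the ubiquitin receptor Psmd4 one of 0.12 (limma-trend adjusted p = 0.491). The Psmd6 peak had nearly equal means of 178 ± 33.4 and 181 ± 3.73 (SD, n = 4; log2 change 0.05).

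Psmd5 and Psmd9 encode chaperones that assemble the base of the cap. The Psmd5 peak had values of 262, 258, 254 and 291 in control and of 302, 334, 352 and 307 in paused libraries, with no overlap (log2 change 0.28 with an SE of 0.10, limma-trend adjusted p = 0.0638). The start site peak of Psmd9 had a log2 change of 0.24 (SE 0.14, limma-trend adjusted p = 0.253), and its weak peak at the other end one of -0.44 (SE 0.29).

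Psme1 and Psme2 encode the subunits of 1 activator ring, and lie near each other on chromosome 14. Their strongest peaks had different values: Psme1 showed 231, 245, 224 and 229 in control and 243, 226, 228 and 234 in paused libraries (log2 change 0.01, SE 0.11, limma-trend adjusted p = 0.982), and Psme2 showed 380, 332, 444 and 436 in control and 428, 438, 557 and 489 in paused libraries (log2 change 0.27 with an SE of 0.11, limma-trend adjusted p = 0.0924). The difference between the 2 changes was not tested. The Psme2 peak is centred 45 bp from an end of Rnf31, a ubiquitin ligase gene, and 567 bp before the start site of Psme2. The peaks of Psme3 and Psme4, which encode 2 nuclear activators, had log2 changes of 0.18 each (limma-trend adjusted p = 0.349 and 0.275), with control means of 150 ± 16.1 and 181 ± 8.58 and paused means of 170 ± 21.2 and 205 ± 5.99 (SD, n = 4).

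By strongest peak, the median log2 change was 0.18 for the 15 core particle genes, 0.16 for the 18 regulatory particle genes and 0.18 for the 4 activator genes, with 0, 3 and 0 calls. Of all other gene-end peaks 10.5% were called higher and 1.25% lower. With the replicate number added to the fit as a block, core particle peaks (Psma2, Psma5, Psmb3) and an activator peak (Psme2) were also called. Libraries with the same number are not known to be paired. Without the block, the 3 called peaks had mean values of 277 (Psmc4), 292 (Psmd3) and 353 (Psmd8). They fell in the strongest range of member peaks, 257 to 445, where 12.1% of other gene-end peaks were called higher. After TMM rescaling the medians of the particles were 0.07, 0.05 and 0.08, and after loess correction -0.03, -0.05 and -0.03. The SD of the changes over the 37 strongest peaks, 0.12, was about the median SE of a single change, 0.11, so that the order of the genes by change is not resolved. The 10 peaks that were not the strongest of their gene had a mean value of at most 78.3 and a median log2 change of -0.15, with 6 of 10 negative, and none was called. Their median SE was 0.26.

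Like the values of gene ends in general, the changes differed with peak strength, and members were therefore set beside other gene-end peaks in the same range. Among the 12 strongest member peaks (mean value from 257 to 445) the median log2 change was 0.27, against 0.20 for 2951 other gene-end peaks in that range. Of these 12, 9 were above that median and 3 were called higher, where 12.1% of the others were. Among the 11 peaks from 188 to 242 the median was 0.18 against 0.20, with 3 above and 0 called (12.95% of the others). Among the 12 peaks from 109 to 179.5 it was 0.11 against 0.19, with 0 of 12 above and 0 called (13.3% of the others). The weakest 12, from 10.4 to 81.3, had a median of 0.02 against 0.03, with 6 above, and 0 were called (6.26% of the others). This range is wide, and its members are not closely matched for strength. Within it the median change of other gene-end peaks went from -0.27 near a value of 12.7 to 0.15 near 72.6. Over all 47 peaks the median difference from the peaks of like strength was -0.02, with 18 above and 29 below, the loosely matched weakest range included. In single control libraries the median deviation of member peaks from like strength was 0.04, -0.039, 0.034 and 0.01. In paused libraries it was -0.036, 0.036, -0.068 and 0.032, so that the groups overlapped. The SD between replicates of this per-library value was 0.0442. It is not an SE of the difference of -0.02, which compares means of 4 libraries. No test was made of the list, whose members were proposed with results of these data known.

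**Figure D3:**
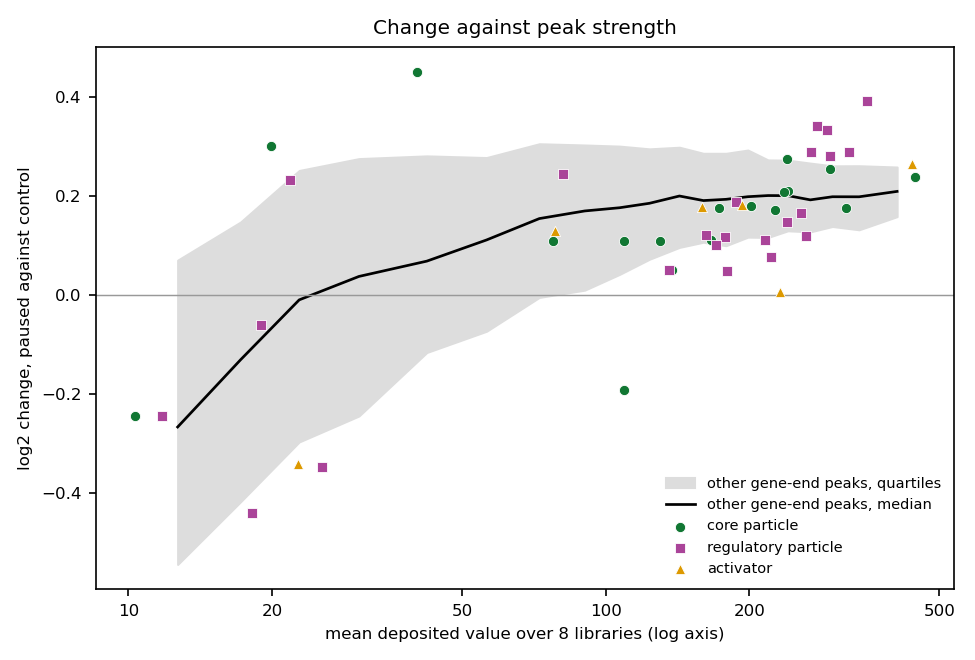
Log2 change (paused against control) against the mean deposited value over 8 libraries (log axis) for the 47 tested proteasome peaks, by particle, over the median (black line) and quartiles (grey band) of 16122 other gene-end peaks in 20 bins of strength. The strongest proteasome peaks lie mostly on or above the line, those with means between 109 and 179.5 below it, and weak ones scatter on both sides of 0.

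The summed value of all 48 member peaks was 7678, 7923, 8136 and 8101 in the control libraries and 8694, 8900, 9306 and 9339 in the paused libraries. The groups did not overlap, and the means of 7960 ± 209.7 and 9060 ± 314.9 (SD, n = 4) differed by 13.8%. The summed value of the other gene-end peaks differed by 13.7%. Expressed as a percentage of that sum, the proteasome peaks held 0.346% ± 0.00999 in control and 0.347% ± 0.0105 in paused libraries (SD, n = 4), with values of 0.356, 0.332, 0.349 and 0.349 in control and of 0.345, 0.358, 0.334 and 0.351 in paused libraries. These ranges overlapped. With TMM scaling the sum of the member peaks differed by 6.0%, without overlap of the groups. That of the other gene ends differed by 5.82%, with overlap.

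The mean core particle sum was 2992 in control and 3383 in paused libraries (13.1% more), that of the regulatory particle 3908 and 4490 (14.9%) and that of the activators 1060 and 1187 (12.01%). In each the groups did not overlap with the authors' scaling. With TMM scaling they overlapped for the core particle (5.3% more) and the activators (4.26%), but not for the regulatory particle (7.0%). The ratio of the regulatory to the core particle sum was 1.26, 1.39, 1.24 and 1.34 in control and 1.29, 1.45, 1.33 and 1.26 in paused libraries, with means of 1.31 ± 0.0692 and 1.33 ± 0.0813 (SD, n = 4). The difference was within the spread of the replicates.

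**Figure D4:**
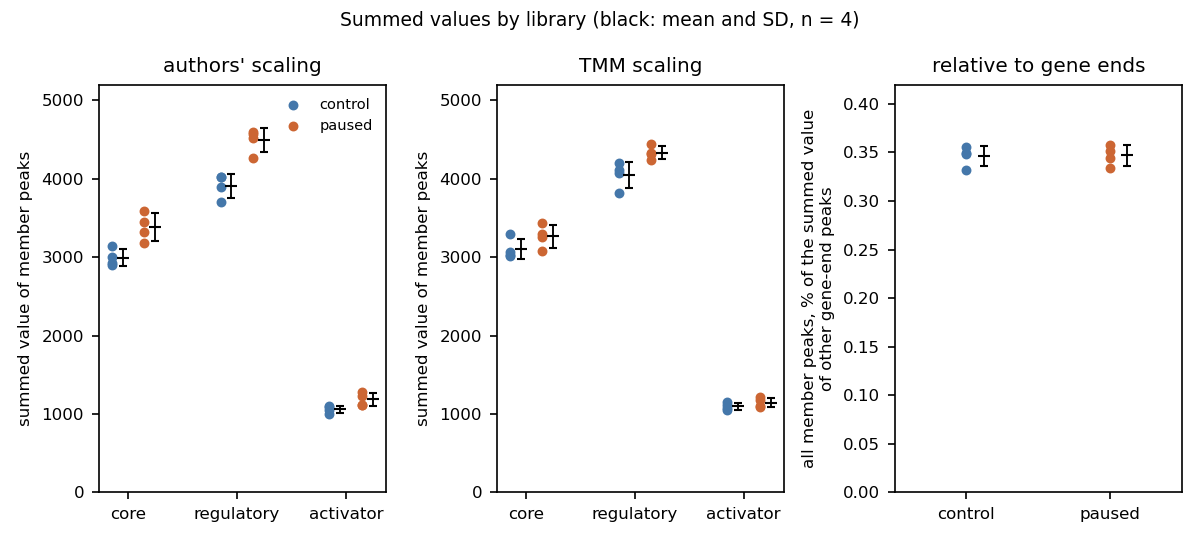
Summed value of the proteasome peaks in each library by particle, with the authors' scaling (left) and TMM scaling (middle), and all proteasome peaks as a percentage of the summed value of other gene-end peaks (right); black marks are the mean and SD of 4 libraries. The paused sums lie above the control sums with the authors' scaling, while the percentages at the right overlap (means 0.346 and 0.347).

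The genes without a peak in the window were Psma7, Psmb10 and Psmc5. The nearest peak lay 11473 bp from an end of Psma7, next to an end of Lsm14b, 1256 bp from an end of Psmb10, next to an end of Lcat, and 5670 bp from an end of Psmc5, where Ddx42 has the nearest end. No value is given for the promoters of these 3 genes.

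Other genes of the pathway were taken from 6 lists of 43 genes in all. Near 36 of them there were 48 tested peaks outside the proteasome set, of which 2 were called higher and 1 lower, where 10.5% and 1.25% of other gene-end peaks were. Of the 48 changes 37 were positive and the median was 0.13, against 78.2% positive and a median of 0.17 at other gene ends. The lists were assembly chaperones (6 peaks, 0 called, median log2 change 0.14), regulators of proteasome transcription such as Nfe2l1 and Ddi2 (8 peaks, 0 called, median 0.10), shuttle and segregase genes such as Rad23b and Vcp (11 peaks, 0 called, median 0.13), and antigen processing genes near or related to the immunoproteasome (6 peaks, 0 called, all 6 positive, median 0.30). The peaks at Tap1 are those counted with Psmb8 and Psmb9. For ubiquitin and E1 genes 9 peaks were tested and 1 was called higher (median 0.04), and for further subunits and inhibitors 8 peaks were tested, with 1 called higher and 1 lower (median 0.12).

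The peak called among the ubiquitin genes was that of Ubb, a gene that encodes a chain of ubiquitin units, on chromosome 11 (62550994 to 62551194). Its values were 330, 336, 345 and 335 in control and 425, 397, 445 and 469 in paused libraries, with no overlap (log2 change 0.36 with an SE of 0.10, limma-trend adjusted p = 0.0112). The call was lost without paused replicate 4 (limma-trend adjusted p = 0.0626, log2 change 0.325), after TMM rescaling (0.0701, log2 change 0.261) and after loess correction (0.247, log2 change 0.154). It was also lost in edgeR (adjusted p = 0.0705) and in DESeq2 (adjusted p = 0.105). The peak of Psma8, the alpha subunit of the testis proteasome, on chromosome 18 (14706107 to 14706307), had values of 92.0, 72.9, 77.9 and 79.4 in control and of 102, 123, 93.1 and 115 in paused libraries (log2 change 0.42, SE 0.14, limma-trend adjusted p = 0.0355). It was lost after TMM rescaling (limma-trend adjusted p = 0.131, log2 change 0.317) and after loess correction (0.318, log2 change 0.229). It was also lost without control replicates 2, 3 or 4 (0.0658 to 0.0873, log2 changes 0.372 to 0.413) and without paused replicates 2 or 4 (0.118 and 0.103, log2 changes 0.353 and 0.386). In edgeR (adjusted p = 0.172) and DESeq2 (adjusted p = 0.363) it did not pass either.

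The peak called lower was near Psmb11, the beta subunit of the thymus proteasome, on chromosome 14 (54625812 to 54626012), 602 bp away from a gene end. It had values of 48.7, 54.9, 67.7 and 41.2 in control and of 35.8, 39.4, 37.2 and 32.8 in paused libraries. All paused values lay below all control values (log2 change -0.52, SE 0.18, limma-trend adjusted p = 0.0492). It also passed after TMM rescaling (0.0241), after loess correction (0.022) and in edgeR (0.0152). It missed the threshold in DESeq2 (0.0899), with no filter on weak peaks (0.0513) and with a pseudocount of 0.1 (0.05). It also missed it in 7 of the 8 fits that left out 1 library, the exception being that without control replicate 4 (0.0265). The highest adjusted p of these fits was 0.188, without control replicate 3, where the log2 change was -0.395.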

How the data were processed

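The table the authors deposited lists 134407 peaks with a signal for each of the 8 libraries, its reads after division by a scaling factor. Per the submitters' processing notes, the tools were FastQC, Trim Galore, Bowtie2 2.4.1, MACS3 3.0.3 and DiffBind 3.16.0, with build mm10; their settings, read filters and handling of the Tn5 offset are not given in the sources used here. Reads were 150 bp, paired-end, per the labels' protocols. All values were whole multiples of 1 step per column (100% within 0.01), which gave back the reads. The authors' log2 group means and folds and their p-value and FDR columns enter only the statements that name the authors' deposited table. No per-sample column was left unused.

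Here, log2(value + 1) was fitted with limma-trend (limma 3.58.1, R 4.3.3), no covariates. Peaks averaging under 10 were dropped, which left 127402, and Benjamini-Hochberg adjustment ran over all of these. This log2 scale understates changes of weak peaks. Gene ends and promoters are RefSeq, GRCm38.p6, the assembly of mm10; other gene-end peaks are those within 1 kb of an end of the 21887 protein-coding genes. Ranges of like strength are those spanned by the quartiles of the member peaks. A peak with 0 reads allows up to 3, a value of 1.04 to 5.08; such limits cover counting error only, since PCR copies molecules.

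Alternatives were the pseudocount (0.1), the filter (none, 50), TMM rescaling, loess correction (span 0.3), edgeR 4.0.16 and DESeq2 1.42.0 on the recovered reads, a block on the replicate number, each library left out, and other windows. The limma-trend and edgeR fits were run on simulated reads, with a fixed spread between libraries and no scaling shift between the groups. That simulation covered no other step. Named peaks were those called, the 6 strongest, the 3 largest rises and 3 lowest changes with a mean of at least 50, the strongest peak of each immunoproteasome and activator gene, and called peaks of the pathway lists; others were chosen after their values were seen. The members and lists were chosen with earlier results of these data known.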

Additional observations from a re-analysis of the deposited data

Results flagged for a closer look

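In 44 groups of 4 values examined (the named peaks, the sums by particle, their ratio and the reads in peaks, in each of the 2 groups), 2 had 1 library far from the other 3, where chance gives about 1 in 20. The Psma5 peak had a value of 252 in control replicate 2, against 273 to 277 in the other control libraries. The reads in peaks were 21161767 in control replicate 1, against 4434037 to 6262445 in the other control libraries.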

How the results depend on the processing

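The number of all peaks called, 17660 (13958 higher, 3702 lower), was 12919 after TMM rescaling (7630 and 5289), 16142 in edgeR (9084 and 7058), 5794 in DESeq2 (3902 and 1892), 10956 after loess correction (6497 and 4459), 10910 with a mean value of at least 50 (10159 and 751), and 11570 (without paused replicate 4) to 15845 with 1 library left out. The 3 proteasome calls became 0 after TMM rescaling, after loess correction, in edgeR and in DESeq2, 6 with a mean value of at least 50, and 0 to 3 with 1 library left out. With the replicate block 10 of the 47 proteasome peaks were called, all higher, and 21994 of 127402 over all peaks (17371 higher, 4623 lower). The 10 included Psma2, Psma5 and Psmb3 of the core particle and Psme2 of the activators. The share of other gene-end peaks called was not computed for this fit. Libraries with the same number are not known to be paired. The correlation of their deviations was 0.036 to 0.133, against -0.105 to 0.07 for the 12 pairs with different numbers. Of the 8 libraries, 6 correlated best with their own number. The median log2 change of the proteasome peaks, 0.166, was 0.0638 after TMM rescaling, 0.0474 in edgeR, 0.049 in DESeq2, -0.0351 after loess correction and 0.112 with a window of 2 kb, and 0.139 to 0.173 with 1 library left out. Its difference from gene-end peaks of like strength, a summary chosen after seeing the data, was -0.0454 to 0.00159 with 1 library left out. It was -0.0301 to -0.0193 under TMM rescaling, loess correction, edgeR, DESeq2, the other filters, the other pseudocount and the replicate block. The lowest value, -0.0454, was that without paused replicate 4. The SD between replicates of the deviation in single libraries, 0.0442, is not an SE of this difference. The difference was not computed for the other windows. The summed value, 13.8% higher in paused libraries, was 6.0% higher after TMM rescaling, 0.158% higher relative to other gene-end peaks, and 12.5% to 15.4% with 1 library left out. Of 255 refits of single named peaks, 203 kept their side of the threshold, 47 lost a call and 5 gained one. Most named peaks were not called in the main fit, and only a called peak can lose its call. Of 16 refits each, Psmc4 lost its call in 10, Psmd3 in 8, Psmd8 in 5, Ubb in 5 and Psma8 in 9. Psmb11 lost it in 10 of 15. The cause of these shifts was not tested. At 18 to 29 reads for the median peak in 7 of the libraries, changes of weak peaks are the least precise.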
